A study of Homo sapiens with 24 samples.

Results

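The MHC class I antigen presentation genes described here are 9 listed genes of the 60675 in the count tables, matched by symbol to their Ensembl identifiers. They are the heavy chain genes HLA-B, HLA-C, HLA-E and HLA-F, the light chain gene B2M, the peptide transport and loading genes TAP1, TAP2 and TAPBP, and the regulator NLRC5. RNA was sequenced from MDA-MB-231 and MDA-MB-436, established cell lines from human triple-negative breast cancers, in 24 libraries that form 8 groups of 3. In each line, cells expressing a short hairpin RNA labelled as directed at MDM2 were set against cells expressing a non-targeting hairpin (NT), and cells treated with YX-2-30, a degrader (PROTAC) of the ubiquitin ligase MDM2, were set against cells given its vehicle DMSO. All cells were grown in DMEM with serum. The hairpin sequences, the dose and the duration of treatment are not given in the sources used here. Whether the 3 libraries in each group were grown as separate cultures is not stated, and p-values may then reflect technical spread alone. The series set these agents against their controls, and the comparisons below give the class I genes in those libraries.

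MHC class I molecules display peptides from inside a cell to CD8+ T cells. Proteasomes cut proteins to peptides, the TAP1-TAP2 transporter moves them into the endoplasmic reticulum, and tapasin (TAPBP) with chaperones loads them onto a heavy chain paired with beta-2 microglobulin (B2M). Interferons, IRF1, NF-kB and the coactivator NLRC5 raise transcription of these genes, and tumour cells often express them at reduced levels. HLA-B and HLA-C present peptides to T cells, and HLA-E presents leader peptides of other class I chains to NKG2A receptors on natural killer cells.

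The promoters of HLA-B, HLA-C and B2M are shown because all 3 genes encode parts of the classical class I molecule while their RNA levels behaved differently in the data below. RefSeq promoters (GRCh38.p14) matched 7 of the 9 genes, with 8 start sites because TAP1 has 2. Each line gives bases 200 to 51 before the start site, 5′ to 3′ on the gene's strand. Capitals mark matches on either strand to an NF-kB type element (GGG, then any pair of bases, then TT, then any base, then CC), either of 2 spacings of an interferon-stimulated response type element (GAANNGAAA, or a form 1 base longer with GAAA, then any pair of bases, then GAAA), TGACG (the core of a cyclic AMP response element) or the CCAAT box. The longer spacing was added after the windows had been seen. Matches to different elements did not overlap in these windows (0 overlaps). HLA-B lies at chr6:31357230-31357379 on the minus strand, HLA-C at chr6:31272143-31272292 on the minus strand, and B2M at chr15:44711317-44711466 on the plus strand.
HLA-B: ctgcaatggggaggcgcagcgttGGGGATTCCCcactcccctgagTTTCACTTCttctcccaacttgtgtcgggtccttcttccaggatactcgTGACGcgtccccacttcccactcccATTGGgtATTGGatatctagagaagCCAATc
HLA-C: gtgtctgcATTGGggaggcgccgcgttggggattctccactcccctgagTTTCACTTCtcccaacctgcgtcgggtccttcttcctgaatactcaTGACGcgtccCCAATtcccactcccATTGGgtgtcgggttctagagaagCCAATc
B2M: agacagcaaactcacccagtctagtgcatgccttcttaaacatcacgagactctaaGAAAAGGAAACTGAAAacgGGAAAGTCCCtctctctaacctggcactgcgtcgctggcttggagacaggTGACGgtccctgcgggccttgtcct
The HLA-B window held matches to the NF-kB type element, the shorter interferon-type element, TGACG and the CCAAT box. HLA-C had the shorter interferon-type element but no NF-kB type match in the letters searched. B2M had 2 overlapping matches to the longer interferon-type element, at 135 and 129 bases before its start, next to an NF-kB type match at 116 bases, and TGACG at 71 bases.

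Over the whole 250 bases before the start, 4 of the 7 matched genes (HLA-B, B2M, TAP1, TAPBP) had an NF-kB type match, against 5.07% of 35116 promoters. The shorter interferon-type element was found in 3 (HLA-B, HLA-C, TAP2), against 6.56%, and the longer in 5 (HLA-F, B2M, TAP1, TAP2, TAPBP), against 3.02%. TGACG was found in 4 (HLA-B, HLA-C, B2M, TAP2), against 21.2%, and CCAAT in 5 (HLA-B, HLA-C, HLA-F, B2M, TAP1), against 32%. The longer interferon-type form was chosen after member windows had been seen, so its share against that of all promoters is no separate result. The percentages count single promoters, while TAP1 was counted if either of its start sites matched. HLA-B and HLA-C are near-identical paralogs, so their matches are not independent. A match describes the letters of the reference and no binding was measured.

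Totals ran from 33.4 to 174.7 M counts (M, mega) per library, with a median of 64.0 M, and no pair of libraries was identical. Levels are given as CPM (counts per M) after scaling of library sizes over all 24 libraries, and log2 changes come from edgeR fits of the 12 libraries of a line. The PROTAC libraries of MDA-MB-436 stood apart. Their median absolute log2 difference from the other libraries of their group was 0.187 to 0.276, largest for replicate 3, which also had the lowest total, against 0.099 to 0.140 in all other groups. Changes of the class I genes against DMSO in these libraries, and their line differences, are therefore given with and without replicate 3. Values for the markers, other genes and the summed HLA genes include it. No fall of MDM2 transcript passed the test in the cells labelled as expressing MDM2 shRNA. Its mean ± SD was 18.1 ± 5.93 CPM with the NT hairpin and 26.5 ± 3.83 CPM with the MDM2 hairpin in MDA-MB-231 (n = 3 each, edgeR adjusted p = 0.137), and 25.2 ± 4.29 and 23.2 ± 7.38 CPM in MDA-MB-436 (n = 3 each, edgeR adjusted p = 0.78). The groups are therefore called libraries labelled MDM2 shRNA. A PROTAC acts on the protein, which was not measured.

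The T cell marker CD3E was at 0 in all libraries but 1. The summed leukocyte markers (7 genes) ran from 4.42 to 7.18 CPM in MDA-MB-231. Those of MDA-MB-436 ran from 9.87 to 16.7 CPM in the controls and from 24.4 to 30.2 CPM in the treated libraries, where the integrin gene ITGAM was the largest part (group means 2.13 and 2.10 CPM in controls, 21.1 and 19.5 CPM treated). CD14, a monocyte marker, fell there (group means 11.8 to 5.76 CPM with the hairpin label and 10.9 to 6.46 CPM with the PROTAC, edgeR adjusted p = 0.00594 and 0.027). PTPRC (CD45) fell in MDA-MB-231 (4.96 to 3.33 and 4.85 to 3.19 CPM, edgeR adjusted p = 0.0423 and 0.0348) and had group means of 0 to 0.0833 CPM in MDA-MB-436. The summed fibroblast markers were higher in treated libraries, at least 6.85 against at most 5.08 CPM in MDA-MB-231, and at least 2.21 against at most 1.5 CPM in MDA-MB-436. Nearly all of that sum was PDGFRB (group means 4.40 to 7.81 and 4.51 to 7.87 CPM in MDA-MB-231, 0.761 to 3.06 and 1.01 to 2.84 CPM in MDA-MB-436). DCN was at 0 throughout, and LUM had group means of at most 0.0830 CPM. The luminal markers summed to 9.93 to 12.8 CPM in controls and 13.4 to 17.9 CPM in treated libraries of MDA-MB-231, and to 7.5 to 12.2 and 12.3 to 14.9 CPM in MDA-MB-436. The group means of FOXA1 and GATA3 were both higher in treated MDA-MB-231. In MDA-MB-436 the rise was mostly GATA3 (group means 1.12 to 4.23 and 0.833 to 4.41 CPM), while FOXA1 had 9.11 to 8.66 and 8.01 to 8.71 CPM. ESR1 and PGR had group means of at most 0.225 and 0.317 CPM. VIM, CD44, AXL and ZEB1, expressed in mesenchymal-type triple-negative lines, summed to 4500 to 8860 CPM in MDA-MB-231 and 1260 to 2050 CPM in MDA-MB-436, lower in every treated library than in any control of its line. This did not hold for each gene alone. ZEB1 had overlapping libraries in MDA-MB-436 (group means 18.6 to 17.8 and 23.6 to 18.8 CPM). CD44 fell less in MDA-MB-231 (487 to 458 and 479 to 451 CPM) than in MDA-MB-436 (705 to 404 and 736 to 418 CPM). The part of these marker shifts in the class I results was not tested. Class II genes with CD74 and CIITA summed to 123 to 150 CPM in MDA-MB-231 and 1.65 to 4.04 CPM in MDA-MB-436.

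In both lines and with both agents, every class I gene that passed the test with all 12 libraries of its line and no replicate block was higher in the treated libraries, and none was lower (11.6%, 11.5%, 14.4% and 15.1% of genes were, in the order of comparisons below). Among the alternatives, TAPBP was called lower with the PROTAC in MDA-MB-231 in 2 of 21. HLA-E and TAP1 rose in all 4 comparisons, HLA-B in 3, TAP2 and HLA-F in 2 each, and HLA-C in 1, while B2M, TAPBP and NLRC5 passed the test in none. With the libraries labelled MDM2 shRNA, 3 of 9 rose in MDA-MB-231 (HLA-E, TAP1, TAP2), where 11.1% of 20675 genes rose and 22.7% changed in either direction. With the PROTAC in MDA-MB-231, 4 of 9 rose (the same 3 and HLA-B), against 11.1% of genes (22.6% in either direction). In MDA-MB-436, 4 of 9 rose in the libraries labelled MDM2 shRNA (HLA-B, HLA-E, HLA-F, TAP1), against 16% of 22663 genes (30.4% in either direction), and 5 of 9 with the PROTAC (the same 4 and HLA-C), against 17.3% (32.4% in either direction). The members' median log2 change was 0.17, 0.44, 0.23 and 0.46 in that order, where the median over all genes was 0.01, -0.01, 0.04 and 0.04. Treated and control libraries did not overlap, treated above, for 4, 7, 6 and 6 members, against 19.7%, 19.1%, 27.3% and 21.6% of genes. That count uses CPM scaled within a line, on which TAP2 in MDA-MB-436 and TAP1 with the PROTAC there were apart, while the CPM printed below, scaled over both lines, overlap for them. Without scaling of library sizes, the median of all genes moved to 0.11, 0.08, 0.22 and 0.21, and the share of calls that were higher moved from 48.8%, 49.1%, 52.5% and 53.4% to 68%, 65.6%, 72.8% and 70.9%.

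**Figure D1:**
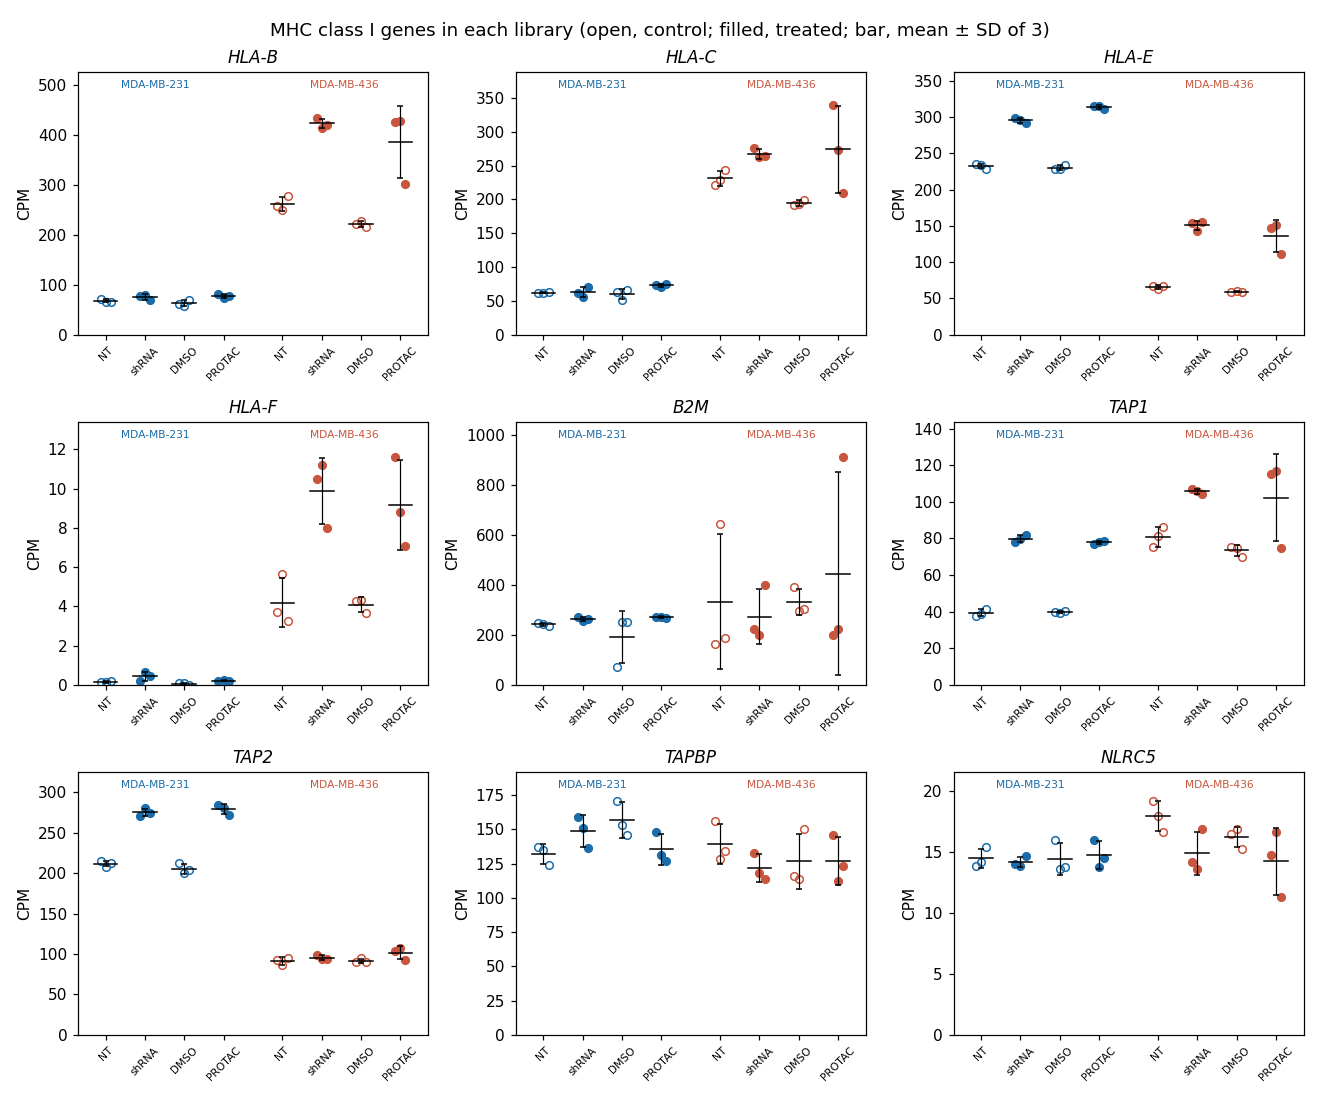
Level of each class I gene in CPM in each of the 24 libraries, by group (x axis; NT, non-targeting hairpin; shRNA, labelled MDM2 shRNA), with open points for controls, filled points for treated libraries and bars for the mean ± SD of 3. The filled HLA-E and TAP1 points of MDA-MB-231 lie above the open ones, and B2M has single libraries far from their group.

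**Figure D2:**
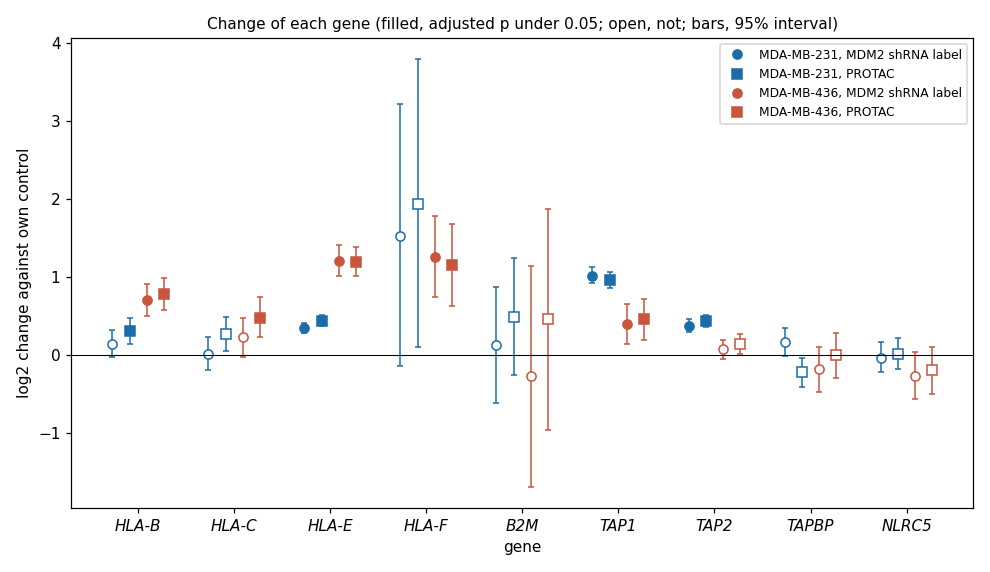
Log2 change of each class I gene against its own control (y axis) for the 4 comparisons, with 95% intervals as bars and filled symbols where the edgeR adjusted p was under 0.05. Every filled symbol lies above 0, and the widest intervals belong to HLA-F in MDA-MB-231 and to B2M.

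HLA-E (ENSG00000204592, GRCh38 chr6:30489467-30494205, plus strand in GENCODE 29, no exon shared with another gene) differed clearly between treated and control libraries in both lines. In MDA-MB-231 the NT libraries had 235, 234 and 229 CPM and the libraries labelled MDM2 shRNA had 299, 296 and 292 CPM. The DMSO libraries had 228, 229 and 234 CPM and the PROTAC libraries 315, 316 and 311 CPM. All 6 treated libraries lay above all 6 controls. Fitted log2 changes were 0.35 (SE 0.03, edgeR adjusted p = 1.35e-05) with the hairpin and 0.44 (SE 0.03, edgeR adjusted p = 2.23e-06) with the PROTAC, or 1.27-fold and 1.36-fold.

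In MDA-MB-436 HLA-E was lower in the controls and rose more. The NT libraries had 66.9, 63.2 and 67.0 CPM and the libraries labelled MDM2 shRNA 154, 143 and 155 CPM. The DMSO libraries had 58.3, 59.6 and 59.3 CPM and the PROTAC libraries 147, 151 and 111 CPM, the last in replicate 3. The groups did not overlap. In log2 terms the change was 1.21 (SE 0.087, edgeR adjusted p = 1.82e-06) and 1.20 (SE 0.087, edgeR adjusted p = 1.9e-06), and without PROTAC replicate 3 the second was 1.30 (edgeR adjusted p = 1.56e-07).

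HLA-B (ENSG00000234745, chr6:31269491-31357188, minus strand) has an annotated span that includes HLA-C, with which it shares exon bases on the same strand, and it also shares exon bases with AL671883.2 on the other strand. In MDA-MB-231 the values were close between groups, with 71.2, 66.0 and 65.5 CPM in NT and 76.2, 79.8 and 69.3 CPM in the libraries labelled MDM2 shRNA, which overlap. The DMSO libraries had 60.9, 57.2 and 69.0 CPM and the PROTAC libraries 80.4, 73.2 and 77.8 CPM, which do not. The log2 change was 0.15 (SE 0.077, 95% interval -0.02 to 0.32, edgeR adjusted p = 0.201) and 0.31 (SE 0.077, edgeR adjusted p = 0.015). The second was lost without DMSO replicate 1, DMSO replicate 2 or PROTAC replicate 1 (edgeR adjusted p = 0.0537, 0.0731 and 0.058).

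The rise of HLA-B was larger in MDA-MB-436. It went from 258, 250 and 277 CPM in NT to 433, 414 and 420 CPM with the MDM2 hairpin label, and from 222, 228 and 216 CPM in DMSO to 426, 428 and 302 CPM with the PROTAC. Both pairs of groups were apart, with PROTAC replicate 3 nearest to its controls. Its log2 change was 0.71 (SE 0.093, edgeR adjusted p = 0.00015) and 0.79 (SE 0.093, edgeR adjusted p = 6.46e-05), and 0.91 (edgeR adjusted p = 4.3e-07) without that library.

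HLA-C (ENSG00000204525, chr6:31268749-31272130, minus strand) rose in 1 comparison with all libraries, and in some alternatives of 2 others. In MDA-MB-231 it had 60.8, 62.0 and 62.3 CPM in NT, 61.1, 55.7 and 70.7 CPM with the MDM2 hairpin label, 62.6, 51.7 and 65.7 CPM in DMSO and 73.3, 69.7 and 74.9 CPM with the PROTAC. The PROTAC libraries lay above their controls, but the log2 change of 0.27 (SE 0.097) had an edgeR adjusted p of 0.0671. It passed in 5 of 21 alternatives, among them DESeq2 (adjusted p = 0.0405), no scaling (edgeR adjusted p = 0.0178) and leaving out replicate 2 or 3 of the libraries labelled MDM2 shRNA, which share the fit (edgeR adjusted p = 0.0493 and 0.0411). The hairpin value was 0.02 (SE 0.097, edgeR adjusted p = 0.924). In MDA-MB-436 it had 222, 228 and 244 CPM in NT, 276, 263 and 264 CPM with the MDM2 hairpin label, 192, 193 and 199 CPM in DMSO and 339, 273 and 210 CPM with the PROTAC. Treated libraries were above controls in both pairs. Fitted log2 changes were 0.23 (SE 0.11, edgeR adjusted p = 0.168) with the hairpin and 0.48 (SE 0.11, edgeR adjusted p = 0.00701) with the PROTAC, or 0.61 (edgeR adjusted p = 0.000208) without PROTAC replicate 3. The hairpin change passed in 4 of 21 alternatives, with the 6 libraries of the comparison alone (edgeR adjusted p = 0.00456), without scaling (0.0169), and without PROTAC replicate 1 or 3 (0.0296 and 0.0389).

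HLA-F (ENSG00000204642, chr6:29722775-29738528, plus strand), a non-classical heavy chain, was nearly absent from MDA-MB-231. Its raw counts there were 13, 8 and 12 in NT, 12, 38 and 28 with the MDM2 hairpin label, 6, 4 and 0 in DMSO and 13, 13 and 11 with the PROTAC. A count of 0 does not show that the transcript was absent. The fitted log2 change of 1.53 (SE 0.76, edgeR adjusted p = 0.19) and 1.94 (SE 0.84, edgeR adjusted p = 0.127) had 95% intervals of -0.14 to 3.21 and 0.10 to 3.79. With all 24 libraries in one fit both passed (edgeR adjusted p = 0.0289 and 0.0278), on the same low counts. In MDA-MB-436 HLA-F had 3.71, 5.63 and 3.23 CPM in NT, 10.5, 11.2 and 7.99 CPM with the MDM2 hairpin label, 4.28, 4.32 and 3.65 CPM in DMSO and 11.6, 8.80 and 7.05 CPM with the PROTAC. Treated libraries were all above controls. The log2 change was 1.26 (SE 0.24, edgeR adjusted p = 0.00177) and 1.15 (SE 0.24, edgeR adjusted p = 0.0029), or 1.28 (edgeR adjusted p = 0.00255) without PROTAC replicate 3. HLA-F shares exon bases with 3 genes of the other strand, among them HLA-F-AS1, and the strand setting of the counting is not given in the sources used here.

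Reads of the HLA genes could have been split between these paralogs, and each line carries its own alleles while counting used 1 reference, so differences among the 4 heavy chains are uncertain. With HLA-B, HLA-C, HLA-E and HLA-F summed to 1 feature, the log2 change was 0.26 (edgeR adjusted p = 0.000263) and 0.39 (edgeR adjusted p = 1.43e-05) in MDA-MB-231, and 0.61 (edgeR adjusted p = 0.000429) and 0.74 (edgeR adjusted p = 0.000105) in MDA-MB-436, for the hairpin label and the PROTAC. The summed heavy chains therefore rose in all 4 comparisons.

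B2M (ENSG00000166710, chr15:44711487-44718877, plus strand, no exon shared), the light chain of class I molecules, had single libraries far from their group in both lines. In MDA-MB-231 it had 247, 242 and 234 CPM in NT, 272, 256 and 265 CPM with the MDM2 hairpin label, 71.3, 251 and 252 CPM in DMSO and 271, 273 and 266 CPM with the PROTAC. DMSO replicate 1 was far below all other libraries of the line, while its HLA-E and TAP1 were at the level of its group. The treated libraries lay above their controls in both pairs, but the log2 change of 0.13 (SE 0.34, edgeR adjusted p = 0.837) and 0.49 (SE 0.34, edgeR adjusted p = 0.355) did not pass the test. Without DMSO replicate 1, which enters the spread of the whole line, these were 0.12 (edgeR adjusted p = 0.0462, past the threshold) and 0.10 (edgeR adjusted p = 0.153).

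In MDA-MB-436 single B2M libraries departed in 3 of 4 groups. The values were 163, 643 and 188 CPM in NT, 221, 198 and 399 CPM with the MDM2 hairpin label, 390, 295 and 305 CPM in DMSO and 198, 222 and 912 CPM with the PROTAC. All pairs of groups overlapped. The fit gave a log2 change of -0.27 (95% interval -1.68 to 1.14) and 0.46 (95% interval -0.96 to 1.87), with edgeR adjusted p of 0.805 and 0.644. It turned to 0.66 without NT replicate 2 and was -0.66 without the third library labelled MDM2 shRNA, and the PROTAC value turned to -0.69 without PROTAC replicate 3 (edgeR adjusted p from 0.377 to 0.587 for these 3), so the direction of B2M in this line depends on single libraries.

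TAP1 (ENSG00000168394, chr6:32845209-32853978, minus strand), one chain of the peptide transporter, had its largest rise in MDA-MB-231. The NT libraries had 37.8, 38.5 and 41.5 CPM and the libraries labelled MDM2 shRNA 77.9, 79.6 and 81.7 CPM. The DMSO libraries had 39.7, 39.3 and 40.3 CPM and the PROTAC libraries 76.8, 78.2 and 78.4 CPM. The 6 treated libraries were all far above the 6 controls. The change was 2.03-fold (log2 1.02, SE 0.048, edgeR adjusted p = 1.77e-07) and 1.95-fold (log2 0.96, SE 0.048, edgeR adjusted p = 2.43e-07).

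In MDA-MB-436, where TAP1 was higher in the controls, it rose less. It had 75.2, 81.3 and 86.2 CPM in NT, 107, 106 and 104 CPM with the MDM2 hairpin label, 75.5, 74.9 and 69.8 CPM in DMSO and 115, 117 and 74.9 CPM with the PROTAC. PROTAC replicate 3 lay at the level of the DMSO libraries on this scale. Its log2 change was 0.40 (SE 0.12, edgeR adjusted p = 0.0234) and 0.46 (SE 0.12, edgeR adjusted p = 0.011), and the second was 0.61 (edgeR adjusted p = 3.2e-05) without PROTAC replicate 3. The hairpin call was lost without any 1 of the libraries labelled MDM2 shRNA, NT replicate 1 or NT replicate 2 (edgeR adjusted p from 0.0603 to 0.0917), and with no filter on low counts (edgeR adjusted p = 0.0602). The PROTAC call was lost without PROTAC replicate 1 or 2 (edgeR adjusted p = 0.0513 and 0.0558) and with the 6 libraries of the comparison alone (edgeR adjusted p = 0.0509). TAP1 shares exon bases with PSMB8-AS1 on the other strand.

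TAP2 (ENSG00000204267, chr6:32821833-32838780, minus strand), the other transporter chain, rose in MDA-MB-231. It had 215, 208 and 212 CPM in NT, 271, 280 and 274 CPM with the MDM2 hairpin label, 212, 200 and 204 CPM in DMSO and 284, 281 and 272 CPM with the PROTAC, so the groups were far apart. The log2 change was 0.38 (SE 0.036, edgeR adjusted p = 2.69e-05) and 0.44 (SE 0.036, edgeR adjusted p = 8.51e-06). In MDA-MB-436 it had 92.5, 86.5 and 95.3 CPM in NT, 99.0, 93.4 and 93.4 CPM with the MDM2 hairpin label, 90.0, 94.5 and 90.0 CPM in DMSO and 104, 108 and 92.6 CPM with the PROTAC, groups that overlap on this scale. The log2 change there was 0.08 (SE 0.059, edgeR adjusted p = 0.383) and 0.14 (SE 0.059, edgeR adjusted p = 0.0848), and the second was 0.17 (edgeR adjusted p = 0.0345) without PROTAC replicate 3. The second passed in 5 of 21 alternatives, among them DESeq2 (adjusted p = 0.0494) and no scaling (edgeR adjusted p = 0.00124). The first passed in 1 of 21, without scaling (edgeR adjusted p = 0.00443). TAP2 shares exon bases with AL669918.1 on the same strand, so its counts may include reads of that gene.

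TAPBP (ENSG00000231925, chr6:33299694-33314387, minus strand), which encodes the loading chaperone tapasin, passed the test in no comparison with all libraries of a line, scaled and without a replicate block. In MDA-MB-231 it had 137, 135 and 124 CPM in NT, 159, 151 and 136 CPM with the MDM2 hairpin label, 171, 153 and 146 CPM in DMSO and 148, 131 and 127 CPM with the PROTAC. The groups overlapped in both pairs, and the log2 change was 0.17 (edgeR adjusted p = 0.172) and -0.22 (SE 0.081 for both, edgeR adjusted p = 0.0841). Without PROTAC replicate 1 the second was -0.28 and passed as lower (edgeR adjusted p = 0.0453). With a replicate block the first passed as higher (edgeR adjusted p = 0.0209) and the second as lower (edgeR adjusted p = 0.00665). Without scaling the first was 0.27 and passed as higher (edgeR adjusted p = 0.0291). In MDA-MB-436 its means ± SD (n = 3) were 139 ± 14.8 CPM in NT, 122 ± 10.1 CPM with the MDM2 hairpin label, 127 ± 20.2 CPM in DMSO and 127 ± 17.5 CPM with the PROTAC. In log2 terms the change was -0.18 (95% interval -0.47 to 0.11) and 0.00 (95% interval -0.29 to 0.29). The second was -0.01 without PROTAC replicate 3 (edgeR adjusted p = 0.963).

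NLRC5 (ENSG00000140853, chr16:56989485-57083531, plus strand), the coactivator of class I promoters, did not pass the test either. In MDA-MB-231 it had 13.9, 14.2 and 15.4 CPM in NT, 14.0, 13.9 and 14.7 CPM with the MDM2 hairpin label, 16, 13.6 and 13.8 CPM in DMSO and 16, 13.8 and 14.5 CPM with the PROTAC. In MDA-MB-436 it had 19.2, 18 and 16.7 CPM in NT, 14.2, 13.6 and 16.9 CPM with the MDM2 hairpin label, 16.5, 16.9 and 15.3 CPM in DMSO and 14.8, 16.7 and 11.3 CPM with the PROTAC. Groups overlapped in all 4 pairs. The fit gave a log2 change of -0.03 (95% interval -0.22 to 0.17), 0.02 (-0.17 to 0.22), -0.26 (-0.56 to 0.04) and -0.19 (-0.49 to 0.11). A rise of the size seen for TAP1 in MDA-MB-231 lies outside all 4 intervals. Without PROTAC replicate 3 the last change was -0.08 (edgeR adjusted p = 0.671).

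The effects of the hairpin and the PROTAC, each against its own control, were compared within each line. No class I gene differed between them in either line, while 1 gene of all tested did in each line (0.00484% of genes in MDA-MB-231, 0.00441% for MDA-MB-436). At an unadjusted p under 0.05, HLA-E and TAPBP differed in MDA-MB-231 and no member in MDA-MB-436, and DESeq2 called 0 in both lines. The intervals of the difference (PROTAC minus hairpin, log2) were narrow for HLA-E, 0.00 to 0.19, and TAP1, -0.20 to 0.09, in MDA-MB-231. They were wider in MDA-MB-436, -0.28 to 0.25 for HLA-E, -0.31 to 0.43 for TAP1 and -0.21 to 0.37 for HLA-B, and widest for B2M, -1.27 to 2.72. Without PROTAC replicate 3 the difference there was 0.09 for HLA-E, 0.22 for TAP1 and 0.21 for HLA-B, and 0 members were called. The 2 kinds of control did not differ for any member either (0 called by edgeR and by DESeq2 in both lines, against 0% and 0.0176% of genes, 0.0132% higher and 0.00441% lower in MDA-MB-436). At an unadjusted p under 0.05, 1 member differed in each line, TAPBP in MDA-MB-231 and HLA-B in MDA-MB-436.

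The size of the response differed between the lines for 4 of the 9 genes, and in opposite directions. HLA-B and HLA-E rose more in MDA-MB-436, and TAP1 and TAP2 more in MDA-MB-231. For the hairpin label, the difference in log2 change (MDA-MB-436 minus MDA-MB-231) was 0.54 (SE 0.14, edgeR adjusted p = 0.00904) for HLA-B and 0.85 (SE 0.11, edgeR adjusted p = 8.53e-06) for HLA-E, and -0.64 (SE 0.15, edgeR adjusted p = 0.00454) for TAP1 and -0.32 (SE 0.076, edgeR adjusted p = 0.0051) for TAP2. The TAP2 value was -0.26 and lost its call with no filter on low counts (edgeR adjusted p = 0.0926). Of 24719 genes, 9.94% differed upward and 9.77% downward (19.7% in all).

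For the PROTAC the same 4 genes differed, by 0.49 (HLA-B, edgeR adjusted p = 0.0151), 0.76 (HLA-E, 2.65e-05), -0.49 (TAP1, 0.0228) and -0.29 (TAP2, 0.00811), where 11.8% of genes differed upward and 10.5% downward (22.3% in all). Without PROTAC replicate 3 of MDA-MB-436 these were 0.64, 0.89, -0.31 and -0.23, all past the threshold, and HLA-C also passed it, with 0.38 (edgeR adjusted p = 0.0462) in place of 0.22 (edgeR adjusted p = 0.417). The HLA-B call was lost without DMSO replicate 3 of MDA-MB-231 or PROTAC replicate 1 or 2 of MDA-MB-436 (edgeR adjusted p from 0.0508 to 0.0573), and the TAP1 call without DMSO replicate 1 of MDA-MB-436 (edgeR adjusted p = 0.0554).

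**Figure D3:**
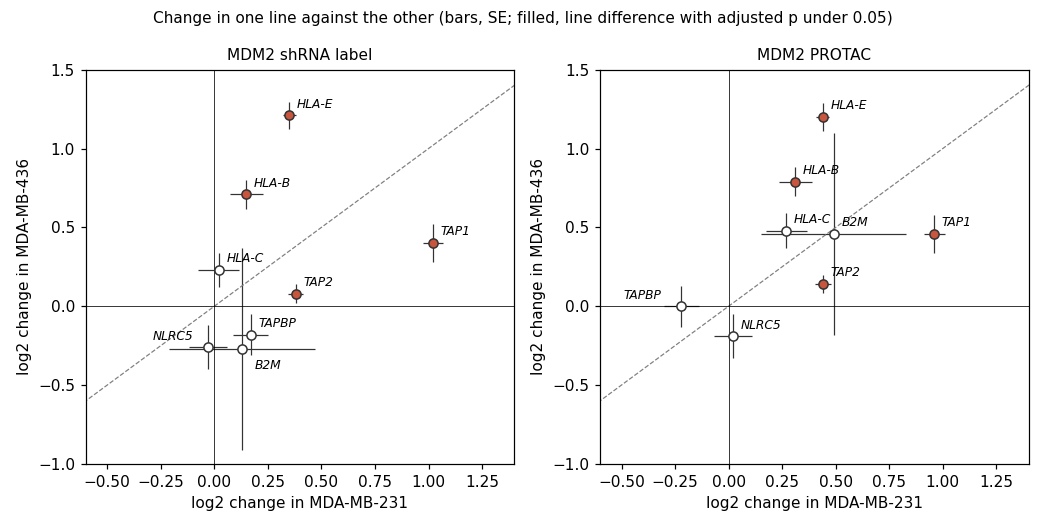
Log2 change in MDA-MB-436 (y axis) against that in MDA-MB-231 (x axis) for each class I gene except HLA-F, with SE as bars, filled where the line difference had an edgeR adjusted p under 0.05, and a dashed line of equal change. HLA-B and HLA-E lie above that line and TAP1 and TAP2 below it with both agents.

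The lines were also compared by their control libraries alone (NT and DMSO). Over the 6 control libraries of each line, 7 of 9 genes differed (6 to 8 over the alternatives), 5 higher and 2 lower in MDA-MB-436. Most genes differed in this comparison (66.8%, with 35.9% higher and 30.9% lower), so the count is not particular to the class I genes. HLA-F (log2 5.57, SE 0.35), HLA-B (1.89, SE 0.073), HLA-C (1.80, SE 0.087) and TAP1 (0.96, SE 0.076) were higher in MDA-MB-436, and HLA-E (-1.89, SE 0.055) and TAP2 (-1.19, SE 0.039) were lower, with edgeR adjusted p of at most 5.4e-10. NLRC5 was 0.24 higher (SE 0.086, edgeR adjusted p = 0.0204), a call lost in 8 of 30 alternatives, 6 of them leaving out 1 control library (replicate 1 or 2 of NT in either line, or DMSO replicate 2 in either line, edgeR adjusted p from 0.0585 to 0.0908). B2M (0.62, edgeR adjusted p = 0.16) and TAPBP (-0.11, edgeR adjusted p = 0.225) did not pass the test, though TAPBP did without DMSO replicate 3 of MDA-MB-436 (edgeR adjusted p = 0.0203). The genes that rose more in a line had higher control levels there for HLA-B and TAP2 and lower ones for HLA-E and TAP1. Each line carries its own HLA alleles while counting used 1 reference, so line differences in HLA levels are uncertain. The part of read mapping in them was not tested.

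Per kilobase of annotated exon, HLA-E led in every group of MDA-MB-231, with 78.2 ± 1.2 CPM per kb in NT and 106 ± 0.843 with the PROTAC (SD, n = 3 each). In NT of that line B2M (39.6), TAP2 (33.2), TAPBP (26.1), HLA-C (24.6), HLA-B (22.2), TAP1 (8.17), NLRC5 (1.17) and HLA-F (0.0342 CPM per kb) followed, and of these 8 steps only that from TAPBP to HLA-C was within the spread of the libraries. In MDA-MB-436 HLA-C (92.2) and HLA-B (85.7) led in NT, and their libraries overlapped. With the MDM2 hairpin label HLA-B (138) led HLA-C (107 CPM per kb) and no library overlapped, followed by HLA-E (50.7) and B2M (44.8), which overlapped. NLRC5 and HLA-F were last in all 8 groups. Per kilobase of coding sequence B2M, whose annotated exons are mostly noncoding, led in all 8 groups, so its rank depends on the length used.

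Over the 24 libraries, with the mean of each line taken off, HLA-B and HLA-E had a Pearson correlation of 0.96 and TAP1 and TAP2 of 0.94, while TAP2 with HLA-B had 0.51. These values describe libraries that share treatments and depth. To the mean profile of the 9 genes, TAP1 (0.899), HLA-B (0.858) and HLA-E (0.850) were closest, and B2M (-0.022), TAPBP (-0.050) and NLRC5 (-0.090) were farthest. Each of the 9 genes is itself part of that mean, which raises its own correlation. Of the 11644 genes compared, all averaging 1 CPM or more per line, those most like that profile included TRAF4 (0.969), ABHD8 (0.956), FEN1 (0.955), ITPKA (0.954) and SERTAD1 (0.954). TRAF4, an adaptor of TNF receptor type signalling, rose by a log2 change of 0.70, 0.71, 0.57 and 0.96 across the hairpin and PROTAC comparisons of MDA-MB-231 and then MDA-MB-436. It was picked for its likeness in these same libraries, so its rise is no separate result.

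Among 18 other genes of peptide processing and loading, 3 rose and 4 fell in each comparison of MDA-MB-231. In MDA-MB-436, 2 rose and 4 fell (hairpin label) or 4 rose and 5 fell (PROTAC). Of all genes, 11.1%, 11.1%, 16% and 17.3% rose in these comparisons, and 11.6%, 11.5%, 14.4% and 15.1% fell. The median log2 change of the 18 was -0.08, -0.03, -0.05 and -0.06. The immunoproteasome subunit PSMB8, next to TAP1 in the genome, rose in MDA-MB-231 from 40 ± 1.81 to 61.4 ± 4.45 CPM (hairpin label; log2 0.62, edgeR adjusted p = 9.04e-05) and from 39.3 ± 2.53 to 63.4 ± 2.33 CPM (PROTAC; log2 0.69, edgeR adjusted p = 4.23e-05). In MDA-MB-436 its log2 change of 0.13 and 0.21 did not pass the test (edgeR adjusted p = 0.423 and 0.172). The peptide editor gene TAPBPL, a relative of tapasin, did the reverse. It went in MDA-MB-436 from 9.64 ± 0.992 to 37.5 ± 2.21 CPM (hairpin label; log2 1.98, edgeR adjusted p = 3.64e-06) and from 8.29 ± 0.270 to 36.6 ± 9.41 CPM (PROTAC; log2 2.13, edgeR adjusted p = 2.09e-06), and stayed between 2.21 and 2.69 CPM on average in MDA-MB-231. TAPBPL shares exon bases with VAMP1 on the other strand and CD27 on the same strand. The line difference passed the test for both genes and both agents (edgeR adjusted p = 0.0167 and 0.0231 for PSMB8, 0.000154 and 7.23e-06 for TAPBPL).

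CALR and PDIA3 encode chaperones of the loading complex. CALR (calreticulin) fell in all 4 comparisons, by log2 changes of -0.25, -0.31, -0.66 and -0.59 (SE 0.052 in the first line and 0.05 in the second, edgeR adjusted p at most 0.00509). PDIA3 (ERp57) had -0.20, -0.22, -0.73 and -0.73 and passed the test in all but the first (edgeR adjusted p = 0.0641).

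Among the class I-like molecules, 8 of 10 could be tested in MDA-MB-231 and 9 in the other line. With each agent 2 rose and 0 fell in MDA-MB-231, MICB and ULBP2, ligands of the NKG2D receptor of natural killer cells. Of all genes, 11.1% rose with each agent there, and 11.6% and 11.5% fell. ULBP2 went from 14.3 ± 0.204 to 27.2 ± 2.19 CPM with the hairpin label (log2 0.93, edgeR adjusted p = 6.8e-06) and from 13 ± 0.298 to 26.8 ± 1.26 CPM with the PROTAC (log2 1.04, edgeR adjusted p = 3.16e-06). In MDA-MB-436 ULBP2 did not pass the test (log2 -0.11 and 0.05), and the line difference did (edgeR adjusted p = 1.53e-07 and 3.45e-07). There ULBP1, another NKG2D ligand, rose by 1.28 and 1.11 and MR1, which presents vitamin B metabolites, by 1.61 and 2.20 from group means of 0.844 and 0.716 CPM (edgeR adjusted p at most 0.0033), making 2 risen with the hairpin label, and MICB was the third with the PROTAC, where 3 fell. Of all genes in MDA-MB-436, 16% and 17.3% rose and 14.4% and 15.1% fell. The related genes ULBP3 and MICA had lower group means in treated MDA-MB-436. ULBP3 went from 3.74 to 2.85 CPM (hairpin label) and from 4.52 to 2.49 CPM (PROTAC). MICA went from 57.6 to 50.7 and from 52.3 to 45.6 CPM. With the hairpin label 0 class I-like genes were called lower there. In MDA-MB-231 ULBP3 went from 4.38 to 5.58 and 4.44 to 5.67 CPM, and MICA from 97.2 to 97.9 and 91.5 to 95.8 CPM. The median log2 change of the tested class I-like genes was 0.35, 0.51, -0.17 and 0.05.

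Among 21 genes of interferon and NF-kB signalling and class I transcription, 6 rose and 1 fell (hairpin label) and 9 rose and 0 fell (PROTAC) in MDA-MB-231, and 6 rose and 3 fell and 5 rose and 3 fell in MDA-MB-436. The shares over all genes in these comparisons were 11.1%, 11.1%, 16% and 17.3% higher, and 11.6%, 11.5%, 14.4% and 15.1% lower. IRF1, a transcription factor of class I promoters, was higher in treated MDA-MB-436, going from 41.2 ± 3.13 to 83.4 ± 2.61 CPM with the hairpin label (log2 1.04, edgeR adjusted p = 8.24e-06) and from 37.1 ± 4.72 to 80.9 ± 7.19 CPM with the PROTAC (log2 1.12, edgeR adjusted p = 4.59e-06). In MDA-MB-231 it had 0.22 (edgeR adjusted p = 0.0704) and 0.38 (edgeR adjusted p = 0.00529), and the line difference passed the test with both agents (edgeR adjusted p = 0.000152 and 0.000279). NFKB1, a subunit of NF-kB, rose in MDA-MB-436 by 0.85 and 0.83 (edgeR adjusted p = 4.46e-06 and 5.08e-06) and had 0.00 and -0.02 in MDA-MB-231, with a line difference of 0.84 and 0.85. TYK2, a kinase of interferon receptors, rose in all 4 comparisons, by 0.30, 0.25, 1.18 and 1.21. SOCS1, an inhibitor of interferon signalling, fell in MDA-MB-436 by 1.82 and by 1.20 on the log2 scale (edgeR adjusted p = 5.45e-06 and 9.29e-05). The median log2 change of the 21 was 0.21, 0.21, 0.06 and 0.02.

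**Figure D4:**
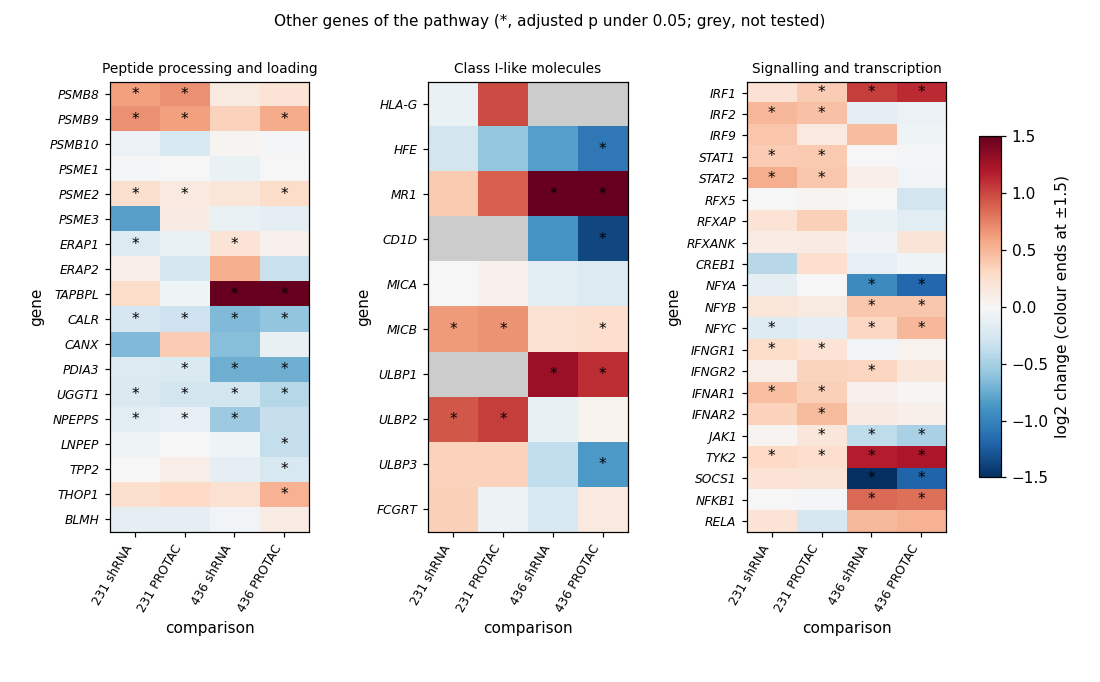
Log2 change (colour, ends at ±1.5) of the other genes of the pathway in 3 lists (rows) and 4 comparisons (columns), with a star where the edgeR adjusted p was under 0.05 and grey where a gene was not tested. TAPBPL, IRF1 and NFKB1 are redder in the MDA-MB-436 columns and PSMB8 and ULBP2 in the MDA-MB-231 columns.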

How the data were processed

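RNA was sequenced in 24 libraries, 12 for MDA-MB-231 and 12 for the MDA-MB-436 line. Per the labels' protocols, total RNA was isolated with TRIzol and the library kit was NEBNext Ultra II RNA. Tools named per the submitters' processing notes are cutadapt 2.4, HISAT2, StringTie and edgeR, and the build is GRCh38. Strand setting, annotation and treatment of reads that map to several genes are not given in the sources used here. The deposited values are counts per Ensembl gene, whole numbers for 60675 genes, per the files. Values of 4 were 1.2 to 1.64 times as frequent as the mean of 3 and 5, so counts may not be single fragments and their own error is not interpreted.

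Genes were filtered with filterByExpr and tested by edgeR 4.0.16 (quasi-likelihood, TMM scaling, Benjamini-Hochberg adjustment over all genes, threshold 0.05), with the 12 libraries of a line in one fit of 8 residual degrees of freedom (20675 genes for MDA-MB-231, 22663 for MDA-MB-436). Line differences used one fit of 24 libraries (24719 genes). CPM are scaled over all 24 libraries, and the standard error is the log2 change divided by the square root of F. Alternatives were RLE factors, no scaling, other filters, DESeq2 1.42.0, limma 3.58.1 voom, a replicate block, other sets of libraries, each library left out, and the 4 HLA genes summed. Coding length from GENCODE 29 was chosen after seeing the data, in place of RefSeq coding length, which was not run. The members, pathway lists and naming rule (in each list, the 4 genes with the smallest adjusted p in any treatment comparison, and the 6 genes most like the mean member profile) were chosen with earlier results of these data known. Some genes that the rule or the lists hold are not reported here. Promoters were read from RefSeq. Software also included R 4.3.3, Python 3.11.15, numpy 2.4.6, pandas 2.3.3 and matplotlib 3.10.9.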

Additional observations from a re-analysis of the deposited data

Results flagged for a closer look

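The response differed between the lines for 4 class I genes with each agent, by the test of the difference itself over 24 libraries. With the hairpin label the difference in log2 change (MDA-MB-436 minus MDA-MB-231) was 0.54 for HLA-B, 0.85 for HLA-E, -0.64 for TAP1 and -0.32 for TAP2. With the PROTAC it was 0.49 for HLA-B, 0.76 for HLA-E, -0.49 for TAP1 and -0.29 for TAP2. The edgeR adjusted p was at most 0.0228 for all 8. Each treated library of HLA-E lay above its controls in both lines. Groups had 3 libraries, too few for a test of single outlying values.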

How the results depend on the processing

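Counts of members called kept within 1.5 times of the values above under all alternatives run, with 1 exception: without scaling of library sizes, 5 members in place of 3 rose with the hairpin label in MDA-MB-231 (HLA-B and TAPBP added). Over the alternatives the count ran from 3 to 5 and from 3 to 6 (hairpin label and PROTAC, MDA-MB-231), from 3 to 6 and from 4 to 6 (MDA-MB-436), and from 3 to 4 and from 3 to 5 for the line differences. The called rises of HLA-E in 4 comparisons, TAP1 and TAP2 in MDA-MB-231 and HLA-B and HLA-F in MDA-MB-436 were past the threshold in every alternative run for them. With HLA-B, HLA-C, HLA-E and HLA-F summed, a count of 9 members cannot be given.

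Replicate numbers did not pair the libraries: correlations of same-numbered deviations ran from -0.05 to 0.06. With a replicate block, genes called went from 4694 to 4274 and from 4668 to 4302 in MDA-MB-231 and from 6896 to 6530 and from 7334 to 6877 in MDA-MB-436, and 4, 6, 4 and 5 members were called. Of the 6 for the PROTAC and MDA-MB-231, 5 were higher, HLA-C (0.28, edgeR adjusted p = 0.0286) added, and 1 was lower, TAPBP (-0.22, edgeR adjusted p = 0.00665). With the hairpin label TAPBP was added as higher (0.17, edgeR adjusted p = 0.0209), and the NLRC5 difference between the control libraries of the lines lost its call (edgeR adjusted p = 0.169). The block changed no other call of a member.

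Signs changed only for members that passed no test in the comparison. NLRC5 with the hairpin label in MDA-MB-231 became 0.07 without scaling. TAPBP with the PROTAC in MDA-MB-436 became -0.01 with RLE factors, no filter, DESeq2 or a replicate block and -0.02 with voom. B2M in MDA-MB-436 became 0.01 (hairpin label) and -0.07 (PROTAC) with voom, and its line difference for the PROTAC 0.06 without scaling. With 1 library left out, the values of results whose sign changed ran as follows. With the hairpin label they ran from -0.08 to 0.10 for HLA-C and from -0.07 to 0.00 for NLRC5 in MDA-MB-231, and from -0.66 to 0.66 for B2M in MDA-MB-436. With the PROTAC they ran from -0.03 to 0.10 for NLRC5 in MDA-MB-231, and from -0.69 to 0.80 for B2M and -0.11 to 0.15 for TAPBP in MDA-MB-436. The PROTAC minus hairpin difference ran from -0.18 to 1.02 for HLA-F, -0.02 to 0.62 for B2M and -0.01 to 0.14 for NLRC5 in MDA-MB-231. For MDA-MB-436 the same difference ran from -0.37 to 0.08 for HLA-F, -0.41 to 1.11 for B2M, -0.03 to 0.22 for TAP1, -0.05 to 0.18 for NLRC5 and -0.08 to 0.09 for HLA-E. The line difference ran from -0.65 to 0.12 for HLA-F and -0.80 to 0.51 for B2M (hairpin label), and from -1.15 to 0.32 for B2M (PROTAC). Apart from fewer libraries or genes in some of these fits, the cause was not tested.

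Depth limits HLA-F in MDA-MB-231, with at most 38 counts per library. Protein, surface class I and transcript isoforms were not measured. Bulk RNA cannot tell a change in every cell from a change in some.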
